A study of Mus musculus with 7 samples.

Results

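The genes described are 8 of the 53465 gene identifiers in the deposited table and were chosen by name for their place in the pathway: Nos2, Arg1, Arg2, Ass1, Asl, Slc7a1, Slc7a2 and Odc1. All 8 were found, and all 8 passed the filter on low counts. They were measured by RNA sequencing of whole tumor tissue from EMT6, a mouse mammary carcinoma cell line implanted orthotopically in the mammary fat pad of female Balb/c mice that were 6 to 8 weeks old. The EMT6-P group held 3 primary tumor samples grown under an isotype control antibody. The EMT6-PTR group, which the sample labels write as PDR, held 3 primary tumor samples grown under anti-PD-L1 antibody and collected as resistant. The samples are called tumors below, but neither the labels nor the methods say that each came from its own mouse, and the study calls replicates technical where nothing else is specified, so p-values measure only the spread between these samples, which may be technical. A single metastasis of the anti-PD-L1 arm was also sequenced, and the labels do not name its site. Both antibodies were given at 250 μg per mouse every 3 days from the day after implantation until the tumors reached the institutional endpoint, so the groups shared the cell line, the host strain, the site of implantation and the schedule of dosing. All tumors came from 1 cell line, and each library mixes tumor cells with host stroma and infiltrating immune cells.

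Arginine is drawn on by competing enzymes. Nos2, the inducible nitric oxide synthase, converts it to nitric oxide and citrulline, while Arg1 in the cytosol and Arg2 in mitochondria are arginases that split it into ornithine and urea. Ass1 and Asl act in turn to rebuild arginine from citrulline, Slc7a1 and Slc7a2 are the cationic amino acid transporters that bring arginine into the cell, and Odc1 turns ornithine into putrescine at the first committed step of polyamine synthesis. In tumors, Nos2 and Arg1 are known as products of activated macrophages and other myeloid cells. Use of arginine by these cells is known to restrain T cells. The study also detected NOS2 in cultured EMT6 carcinoma cells, and the libraries of whole tissue do not tell these sources apart. Nos2 was among the genes that the study selected in part on these same libraries. A higher level of Nos2 in EMT6-PTR here is therefore not independent evidence of its direction. Separately, the study reported more NOS2 in cultured EMT6-PTR than in EMT6-P cells, by western blot and qRT-PCR. It reported less after knockdown of IFNAR1, a type I interferon receptor subunit. Those were measures of cultured cells and not of tumor tissue.

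The genes lie at 8 places on 6 chromosomes of build GRCm38 (GENCODE M21 annotation). Nos2 (ENSMUSG00000020826.8) is at chr11:78920787-78960254 on the plus strand and Arg1 (ENSMUSG00000019987.9) at chr10:24915221-24927484 on the minus strand. Arg2 (ENSMUSG00000021125.6) is at chr12:79130777-79156301 and Odc1 (ENSMUSG00000011179.8) at chr12:17544794-17551505, both on the plus strand. Ass1 (ENSMUSG00000076441.9) is at chr2:31470207-31520672 on the plus strand. Asl (ENSMUSG00000025533.15) is at chr5:130011258-130029247 and Slc7a1 (ENSMUSG00000041313.14) at chr5:148327410-148399904, both on the minus strand. Slc7a2 (ENSMUSG00000031596.15) is at chr8:40862396-40922308 on the plus strand. Exons of Arg2 overlap those of Vti1b by 285 bases and those of Gm48780 by 116 bases on the opposite strand, and exons of Slc7a2 overlap those of Gm26584 by 635 bases. The library kit keeps strand, but the strand setting of the counting is not given in the sources used here, so that reads in these overlaps may be shared.

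Promoter sequence from RefSeq (GRCm38.p6) was at hand for 3 of the 8 genes, Ass1, Odc1 and Slc7a1. They are shown because they were the ones at hand, so that their base composition and motifs can be set against those of all promoters. Each run below ends at the first annotated exon base or at the RefSeq start, whichever comes first, holds none of the motifs named below, and reads 5′ to 3′ on the strand of the gene. Of Ass1 the run covers chr2:31470020-31470206 on the plus strand, of Odc1 chr12:17544623-17544793 on the plus strand, and of Slc7a1 chr5:148399905-148400154 on the minus strand, the window before its upstream start.
Ass1: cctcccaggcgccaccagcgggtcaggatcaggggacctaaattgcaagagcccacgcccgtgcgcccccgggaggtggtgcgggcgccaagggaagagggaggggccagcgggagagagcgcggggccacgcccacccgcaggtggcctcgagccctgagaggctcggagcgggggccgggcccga
Odc1: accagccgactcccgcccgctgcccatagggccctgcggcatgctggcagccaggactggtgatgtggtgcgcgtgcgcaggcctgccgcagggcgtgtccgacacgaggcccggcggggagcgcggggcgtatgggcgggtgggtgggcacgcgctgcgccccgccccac
Slc7a1: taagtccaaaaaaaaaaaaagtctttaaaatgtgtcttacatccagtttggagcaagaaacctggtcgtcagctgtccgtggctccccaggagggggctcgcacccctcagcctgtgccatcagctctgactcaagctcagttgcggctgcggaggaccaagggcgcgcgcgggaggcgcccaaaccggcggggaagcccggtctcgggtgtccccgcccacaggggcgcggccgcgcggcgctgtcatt
Both strands of the 250 bases before each RefSeq start were searched for 5 motifs: NF-kB (GGGACTNTC), GAS (TTCNNNGAA), ISRE (GAAANNGAA), the amino acid response element (TGATGNAA) and the E-box (CACGTG). The Odc1 window and the window before the upstream start of Slc7a1 held none of these letters. The Ass1 window held 1 E-box, which begins 36 bases before the RefSeq start but lies downstream of the annotated start of the gene (chr2:31470207). The window before the downstream start of Slc7a1 (chr5:148392816-148393065) held 1 GAS match. That window overlaps an annotated exon of the gene and is not printed whole. Both matches are shown within a run of 30 bases, with the motif in capitals, from chr2:31470222-31470251 and chr5:148392944-148392973.
Ass1, E-box: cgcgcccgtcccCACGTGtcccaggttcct
Slc7a1, GAS: agagggccactcTTCAAAGAAgccctttga
Of 32544 promoter windows of this length, 6.03% held the E-box, 7.04% the GAS letters, 7.15% the ISRE letters, 3.4% the amino acid response element and 0.953% the NF-kB letters. The GC content was 75.6% in the Ass1 window, 80.0% in the Odc1 window, and 62.4% and 50.0% in the upstream and downstream windows of Slc7a1, against a median of 52.4% over all windows. The windows of Ass1, Odc1 and Slc7a1 had no motif in common, and a match is a description of letters only.

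The libraries held 20430110 to 25213472 estimated counts in all, and the lowest value of any of the 8 genes was 113 estimated counts, for Slc7a2 in EMT6-P replicate 3. Levels are given as CPM, counts scaled to a common library size, with the upper quartile of each library setting the scale, where 3 counts correspond to 0.117 to 0.167 CPM. The 3 EMT6-P tumors were more alike than the 3 EMT6-PTR tumors: correlations of log2 CPM across genes were 0.976 to 0.985 within EMT6-P and 0.872 to 0.931 within EMT6-PTR. EMT6-PTR replicate 3 stood apart in its makeup. Summed CPM of 7 epithelial markers was 615, against 2521 to 2732 in EMT6-P and 2616 and 2386 in replicates 1 and 2. Of the 7, 4 were below all EMT6-P tumors there and 0 above. Summed CPM of 6 fibroblast markers was 12360, against 4935 to 6524 in EMT6-P and 5832 and 7444 in replicates 1 and 2. Of the 6, 5 were above all EMT6-P tumors there and 0 below. EMT6-PTR replicate 1 held skeletal muscle RNA (6 markers, 3970 CPM, against 11.3 to 593 in EMT6-P), and in replicate 2 a single gene, CT010467.1, took 13.9% of all counts, against 0.443% to 1.35% in the other primary tumors. The metastasis is labelled as breast tumor tissue, but 6 lung markers summed to 8092 CPM there, against 4.25 to 27.1 in the primary tumors. In tissue of this kind, fewer cells of a type and less RNA per cell cannot be told apart.

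Across the 8 genes, no difference between EMT6-PTR and EMT6-P passed an adjusted p of 0.05 in the quasi-likelihood test of edgeR, adjusted by Benjamini-Hochberg over 15645 genes, with 3 tumors per group. The background was the same, since 0.0% of all genes tested passed in this fit. Without adjustment, 0 of the 8 genes had a p under 0.05, against 11.4% of all genes. The 0 became 3 (Nos2, Slc7a2 and Odc1, all higher) when EMT6-PTR replicate 3 was omitted, 1 (Asl, lower) when replicate 1 of that group was, and 1 (Arg1, lower) when EMT6-P replicate 3 was. Over all genes in these fits, 8.8% were higher in the first, 8.45% lower in the second and 2.73% lower in the last. A fold change above 0 was measured for 3 genes (Nos2, Slc7a2 and Odc1) and one below 0 for 5, against 52.3% and 47.7% of all genes, and the median log2 fold change was -0.23 over the 8 genes and 0.03 over all genes tested. With DESeq2, 0 of the 8 genes had an adjusted p under 0.05 and 1 (Nos2, higher) had an unadjusted p under 0.05. Over all genes, DESeq2 gave 2.05% an adjusted p under 0.05, and at an unadjusted p under 0.05 it had 8.04% higher and 6.03% lower. The ratio of the highest to the lowest tumor was wider in EMT6-PTR than in EMT6-P for 7 of 8, which is also the case for 82.9% of all genes.

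**Figure D1:**
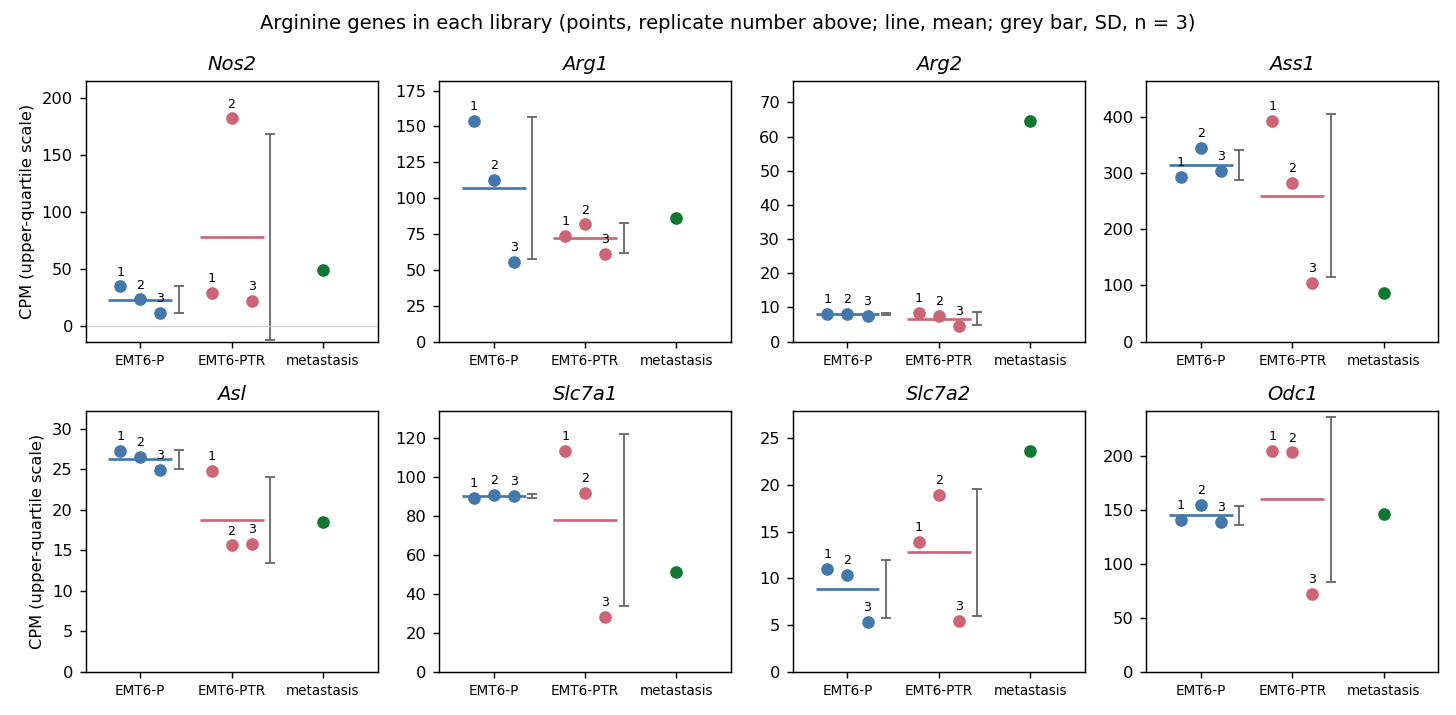
CPM of the 8 genes in each library (y axis, upper-quartile scale) by group (x axis), with 1 point per library, its replicate number above it, the mean as a line and the SD (n = 3) as a grey bar. Nos2 is high in EMT6-PTR replicate 2, Ass1, Slc7a1 and Odc1 are low in EMT6-PTR replicate 3, and Arg2 is high in the metastasis.

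Nos2, the inducible nitric oxide synthase, measured 34.7, 23.4 and 11.6 CPM in EMT6-P replicates 1 to 3. It measured 29.4, 182 and 22.2 CPM in EMT6-PTR replicates 1 to 3. EMT6-PTR replicate 2 was the single high tumor, and replicates 1 and 3 lay inside the range of EMT6-P. The level in replicate 2 was 7.85 times the mean of EMT6-P and 7.05 times the mean of the other 2 EMT6-PTR tumors. A level at least 5-fold above the mean of EMT6-P was found in this tumor for 0.767% of all genes tested. The means were 23.2 ± 11.6 CPM (SD, n = 3) in EMT6-P and 77.9 ± 90.3 CPM (SD, n = 3) in EMT6-PTR. The log2 fold change was 1.75 ± 0.87 (SE), with an adjusted p of 0.476 in edgeR's quasi-likelihood test. Without EMT6-PTR replicate 2 it was 0.16 on the log2 scale, and without EMT6-PTR replicate 3 it was 2.18, with an adjusted p of 0.203 in the same test.

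In the tumor with high Nos2, the markers of some cell types also differed from EMT6-P. The summed CPM of 7 T cell markers was 18.6 in EMT6-PTR replicate 2, against 4.86 to 6.19 in EMT6-P and 6.55 and 5.59 in EMT6-PTR replicates 1 and 3, and 7 of the 7 markers were above all EMT6-P tumors there. The sum of 6 fibroblast markers was 7444 CPM there, with 5 of the 6 above all EMT6-P tumors. The summed CPM of 8 macrophage markers was 1615 in that tumor, within the range of 1505 to 1784 in EMT6-P. Of the 8, 2 (Adgre1 and Cd68) were above all EMT6-P tumors there and 1 (Csf1r) was below them. Their part in the level of Nos2 was not tested.

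Of the genes that passed the filter, 5 had a profile nearest to that of Nos2, by the root mean square difference of log2 CPM over 7 libraries after each gene was centred on its own mean. Rsad2, an interferon-induced antiviral enzyme, differed by 0.446 and measured 24.3, 10.8 and 6.74 CPM in EMT6-P and 13.6, 56.0 and 10.9 CPM in EMT6-PTR. Cmpk2, a mitochondrial nucleotide kinase, differed by 0.491 and measured 11.4, 7.48 and 6.37 CPM in EMT6-P and 8.25, 30 and 7.35 CPM in EMT6-PTR. Both peaked in EMT6-PTR replicate 2, as Nos2 did. The other 3 were of low level: Cd8b1, the beta chain of CD8, at most 1.84 CPM with a difference of 0.413, Slamf7, a receptor on lymphocytes, at most 3.23 CPM with 0.502, and Klrc1, a natural killer cell receptor, at most 2.12 CPM with 0.51. The median over all genes was 1.23, and likeness over 7 libraries of which 1 stands out rests largely on that library.

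**Figure D2:**
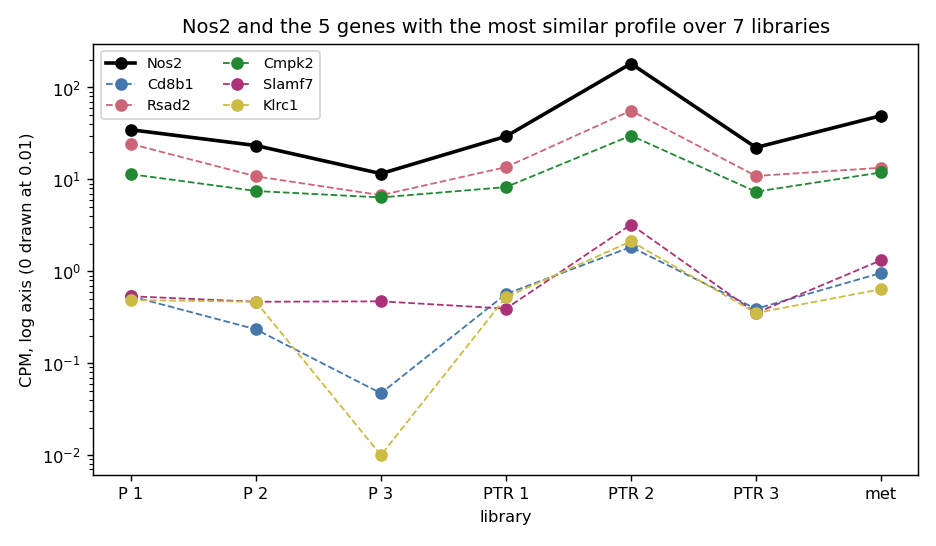
CPM of Nos2 and of the 5 genes nearest to it (y axis, log scale, 0 drawn at 0.01) in the 7 libraries (x axis), with Nos2 as the solid line. Each of the 6 genes is highest in EMT6-PTR replicate 2, where Nos2 is at 182 CPM and Rsad2 at 56.0 CPM.

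Arg1, the cytosolic arginase, measured 154, 113 and 55.4 CPM in EMT6-P and 73.9, 81.7 and 61.1 CPM in EMT6-PTR. It was the 1 gene of the 8 whose spread was narrower in EMT6-PTR, where the highest tumor was 1.34 times the lowest, against 2.78 times in EMT6-P, and all 3 EMT6-PTR tumors lay inside the range of EMT6-P. The log2 fold change was -0.57 ± 0.36 (SE), with an adjusted p of 0.543 in edgeR's quasi-likelihood test. The 3 genes nearest to Arg1 in profile, Gm12791, Pafah1b1-ps1 and Gm12468, were all at or under 1.56 CPM and differed by 0.2, 0.209 and 0.248, against a median of 0.602 over all genes.

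Nos2 and Arg1 were both highest in EMT6-P replicate 1 and lowest in replicate 3, and their ratio varied little among these tumors. The log2 ratio of Nos2 to Arg1 was -2.15, -2.27 and -2.25 in EMT6-P. It was -1.33, 1.16 and -1.46 in EMT6-PTR and -0.80 in the metastasis. The ratio was higher in each EMT6-PTR tumor than in any EMT6-P tumor, although the groups overlapped for each of the 2 genes alone. Of all single genes tested, 21.3% had groups that did not overlap, in either direction. No such share was computed for ratios of 2 genes, so the 21.3% is not a background for the ratio. Nos2 exceeded Arg1 in EMT6-PTR replicate 2 only. As the ratio combines chosen genes, it was not tested.

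Arg2, the mitochondrial arginase, was low in the primary tumors, at 8.19, 8.22 and 7.59 CPM in EMT6-P and 8.33, 7.41 and 4.49 CPM in EMT6-PTR. EMT6-PTR replicate 3 was the lowest of the 6, and replicates 1 and 2 lay close to EMT6-P. The log2 fold change was -0.25 ± 0.28 (SE), with an adjusted p of 0.720 in edgeR's quasi-likelihood test.

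The enzymes that rebuild arginine from citrulline showed no common pattern. Ass1, argininosuccinate synthase, measured 294, 345 and 304 CPM in EMT6-P and 393, 282 and 105 CPM in EMT6-PTR. The EMT6-PTR tumors lay on both sides of the range of EMT6-P, with replicate 3 at 0.334 times its mean, and the log2 fold change was -0.27 ± 0.44 (SE), with an adjusted p of 0.809 in edgeR's quasi-likelihood test. Asl, argininosuccinate lyase, measured 27.2, 26.5 and 24.9 CPM in EMT6-P and 24.8, 15.6 and 15.8 CPM in EMT6-PTR. Asl was the only one of the 8 genes whose groups did not overlap, although EMT6-PTR replicate 1 lay just under EMT6-P replicate 3, and 11.8% of all genes tested were lower in EMT6-PTR without overlap. The log2 fold change of Asl was -0.48 ± 0.22 (SE), with an adjusted p of 0.451 in edgeR's quasi-likelihood test.

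Of the transporters, Slc7a1 was nearly constant in EMT6-P, at 89.4, 91.1 and 90.4 CPM, and varied in EMT6-PTR, at 114, 91.9 and 28.3 CPM. Replicate 3 was at 0.314 times the mean of EMT6-P. The log2 fold change was -0.21 ± 0.46 (SE), with an adjusted p of 0.864 in edgeR's quasi-likelihood test. Slc7a2, the transporter that macrophages induce together with Nos2, measured 11.01, 10.4 and 5.33 CPM in EMT6-P and 13.9, 18.99 and 5.47 CPM in EMT6-PTR. Replicates 1 and 2 of EMT6-PTR were above all EMT6-P tumors and replicate 3 was inside their range, and the log2 fold change was 0.52 ± 0.50 (SE), with an adjusted p of 0.672 in edgeR's quasi-likelihood test.

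Odc1, which draws ornithine into polyamines, measured 141, 155 and 139 CPM in EMT6-P and 204, 203 and 71.7 CPM in EMT6-PTR. EMT6-PTR replicates 1 and 2 were above all EMT6-P tumors, and replicate 3 was below them at 0.496 times their mean. The log2 fold change was 0.14 ± 0.38 (SE), with an adjusted p of 0.895 in edgeR's quasi-likelihood test. Without EMT6-PTR replicate 3 it was 0.49 on the log2 scale, with an adjusted p of 0.125 in the same test.

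**Figure D3:**
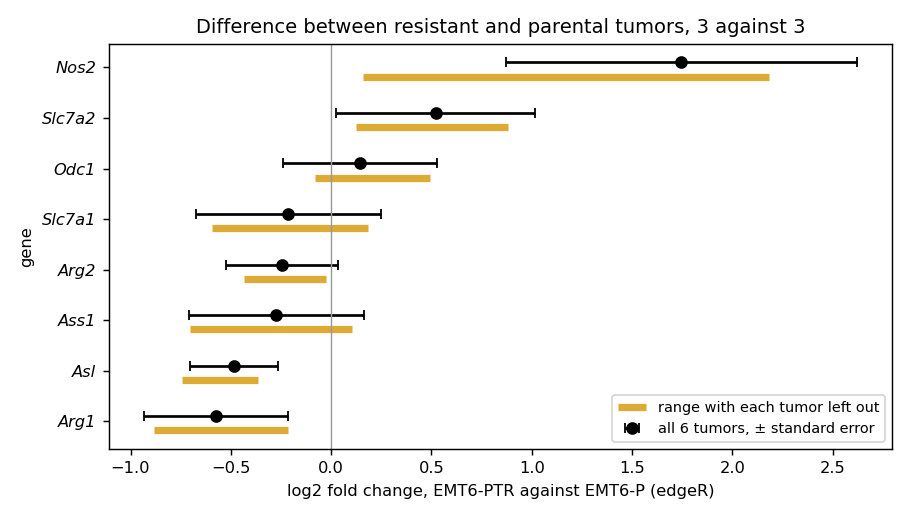
Log2 fold change of EMT6-PTR against EMT6-P (x axis) for the 8 genes (y axis), as black points with the SE over 3 against 3 tumors, and as yellow bars the range of the value over the fits that omit 1 tumor. The bar of Nos2 runs from 0.16 to 2.18, and those of Ass1, Slc7a1 and Odc1 cross 0.

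EMT6-PTR replicate 3 set much of the spread. It was the lowest of the 3 EMT6-PTR tumors for 7 of the 8 genes, all except Asl, against 42.1% of all genes tested. It lay below every EMT6-P tumor for 5 of the 8 (Arg2, Ass1, Asl, Slc7a1 and Odc1) and above them for 0, while over all genes 42.7% were below and 39.8% above. For 3 of the 8 the level was at least 2-fold below the mean of EMT6-P, against 14.7% of all genes. Without this tumor, Ass1 and Slc7a1 changed direction, to 0.10 and 0.18 on the log2 scale. Its epithelial marker sum was the lowest and its fibroblast marker sum the highest of the 6 primary tumors, and their part in these levels was not tested. EMT6-PTR replicate 1 exceeded every EMT6-P tumor for 5 of the 8 genes (background 32.6%) and below for 1 (32.5%), and replicate 2 was above for 4 (33.8%) and below for 3 (38.1%).

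**Figure D4:**
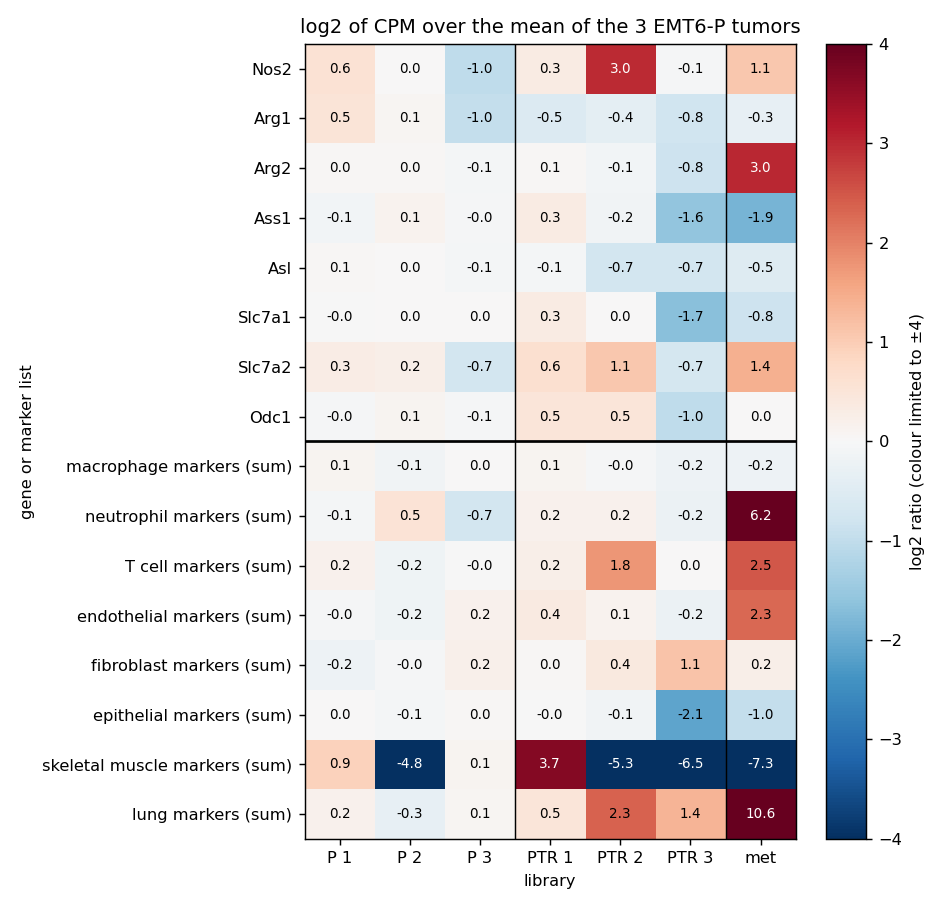
Log2 ratio of CPM to the mean of the 3 EMT6-P tumors, as colour and number, for the 8 genes (upper rows) and for summed cell type markers (lower rows) in the 7 libraries (columns); colour is limited to ±4. EMT6-PTR replicate 2 differs in Nos2 and in T cell markers, replicate 3 in Ass1, Slc7a1, Odc1 and epithelial markers, and the metastasis in Arg2, neutrophil and lung markers.

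Per kilobase of exon, Ass1 was the most abundant of the 8 genes in EMT6-P, with a mean of 130 CPM per kb and no overlap with the next. Arg1 (48.2) and Odc1 (42.5) followed and overlapped between tumors, then Slc7a1 (7.83), Arg2 (5.60), Asl (5.42) and Nos2 (5.26). The ranges of Arg2, Asl and Nos2 overlapped, and the range of Nos2 (2.62 to 7.86) also reached that of Slc7a1 (7.75 to 7.90). Slc7a2 was the lowest (0.975 CPM per kb). In EMT6-PTR the order of means was Ass1 (108), Odc1 (46.9), Arg1 (32.4), Nos2 (17.7), Slc7a1 (6.76), Arg2 (4.72), Asl (3.88) and Slc7a2 (1.40), and each neighbouring pair overlapped between tumors except Asl and Slc7a2. The place of Nos2 in this order rests on replicate 2.

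The metastasis is 1 library, so its values carry no test. Arg2 measured 64.6 CPM there, 9.58 times the mean of EMT6-PTR and above all 6 primary tumors, and it was the most abundant of the 8 per kilobase (45.3 CPM per kb). Of the 18619 genes that passed the filter with this library, 7.12% were at least 5-fold above the mean of EMT6-PTR. At least 2-fold above that mean was 1 of the 8 genes (Arg2), against 16.9% of all genes, and at least 2-fold below it was 1 (Ass1), against 12.0%. Slc7a2 measured 23.7 CPM, also above all primary tumors, as were 25.6% of all genes, and Ass1 measured 86.9 CPM, below all of them, as were 21.0%. The mean of Ass1 in EMT6-PTR was 2.99 times its level in the metastasis, but EMT6-PTR replicate 3 (105 CPM) lay near it. Nos2 measured 49.3 CPM, Arg1 85.9, Asl 18.5, Slc7a1 51.3 and Odc1 146 CPM, all inside the range of the primary tumors. Nos3, the endothelial nitric oxide synthase, was at 23.0 CPM in the metastasis and at 5.00 to 8.82 CPM in the primary tumors.

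In this library the summed CPM of 8 neutrophil markers was 3076, against 25.2 to 60.5 in the primary tumors, with 8 of the 8 above all of them. The sum of 5 endothelial markers was 657, against 113 to 171, with 4 of the 5 above all primary tumors. The other endothelial marker, Emcn, was below all of them at 8.51 CPM, against 15.7 to 22.0 CPM. Lung markers were high, as given above (6 of 6 above all primary tumors), whereas macrophage markers (1434 CPM) lay just under the range of 1441 to 1806 in the primary tumors. Il1b, a cytokine that induces Nos2, measured 1259 CPM in the metastasis and 2.34 to 65.8 CPM in the primary tumors. Their part in the levels of Arg2 and Nos3 was not tested.

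A wider list of 47 genes around the pathway, without the 8, covered nitric oxide synthesis, arginine transport and sensing, ornithine, proline and creatine synthesis, and polyamines. Of its 39 tested genes, 0 had an adjusted p under 0.05, and 7 were lower and 0 higher at an unadjusted p under 0.05 in edgeR's test, against 5.57% and 5.84% of all genes. When a single EMT6-P tumor was omitted the 7 became 0, 1 and 4 (replicates 1, 2 and 3), while 1.89%, 2.75% and 2.73% of all genes were lower. When a single EMT6-PTR tumor was omitted they became 11, 1 and 8, while 8.45%, 3.77% and 11.49% of all genes were lower. The 0 higher genes became 3 when EMT6-PTR replicate 3 was omitted, while 8.8% of all genes were higher in that fit. For 10 of the 39 genes EMT6-PTR was lower without overlap and for 0 higher, against 11.8% and 9.52% of all genes, and the median log2 fold change was -0.11.

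Polyamine genes held 4 of the 7. These were 4 of the 14 in this list, all tested, against 5.57% of all genes lower at an unadjusted p under 0.05 in edgeR's test. Of the 14, 6 were lower in EMT6-PTR without overlap, against 11.8% of all genes, and the median log2 fold change was -0.32. Dhps and Eif5a belong to the hypusine step, in which spermidine modifies the translation factor eIF5A. Dhps measured 28.4, 30.5 and 24.0 CPM in EMT6-P and 22.0, 15.1 and 18.3 CPM in EMT6-PTR (log2 fold change -0.58, unadjusted p = 0.0208 and adjusted p = 0.427 in edgeR's test). Eif5a measured 946, 952 and 894 CPM in EMT6-P and 734, 712 and 438 CPM in EMT6-PTR (log2 fold change -0.57, unadjusted p = 0.0418 and adjusted p = 0.433 in edgeR's test). Srm, spermidine synthase, had a log2 fold change of -0.65 and Oaz1, the antizyme that brings Odc1 protein to degradation, one of -0.42, each with an adjusted p of 0.427 in edgeR's test. In all 4 genes each EMT6-PTR tumor was below each EMT6-P tumor, but these 4 were named for a small p in this same comparison, which favours such separation. For Odc1 itself, not picked by its p, the EMT6-PTR tumors lay on both sides.

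Of the 11 genes of nitric oxide synthesis other than Nos2, 2 were lower at an unadjusted p under 0.05 in edgeR's test, against 5.57% of all genes. Nostrin, a trafficking protein of the endothelial synthase, measured 5.70, 4.53 and 5.19 CPM in EMT6-P and 3.67, 2.34 and 2.27 CPM in EMT6-PTR (log2 fold change -0.90, adjusted p = 0.427 in edgeR's test). Gchfr, the feedback regulator of GTP cyclohydrolase 1, measured 33.6, 27.0 and 30.6 CPM in EMT6-P and 22.5, 21.3 and 10.1 CPM in EMT6-PTR (log2 fold change -0.76, adjusted p = 0.437 in edgeR's test). Gch1, GTP cyclohydrolase 1 itself, which starts the synthesis of the cofactor that Nos2 needs, measured 19.6, 17.8 and 12.9 CPM in EMT6-P and 20.3, 33.9 and 8.52 CPM in EMT6-PTR, so that EMT6-PTR replicate 2 was its highest and replicate 3 its lowest primary tumor. Its log2 fold change was 0.31, with an adjusted p of 0.795 in edgeR's test. The neuronal synthase Nos1 was at or under 4.15 CPM in every library.

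Of the ornithine, proline and creatine list, 8 of 13 genes were tested. Gatm, which moves the amidino group of arginine to glycine for creatine and was picked here after its values were seen, measured 204, 206 and 203 CPM in EMT6-P but 242, 325 and 26.0 CPM in EMT6-PTR and 29.3 CPM in the metastasis. The urea cycle enzyme Cps1, also named after its values were seen, had 0 counts in all 7 libraries, which allows at most 3 counts in each. Of the transport and sensing list, 6 of 9 genes were tested and 0 had an unadjusted p under 0.05. Slc38a9, the lysosomal arginine sensor, had a log2 fold change of 0.25 with an adjusted p of 0.658 in edgeR's test.

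**Figure D5:**
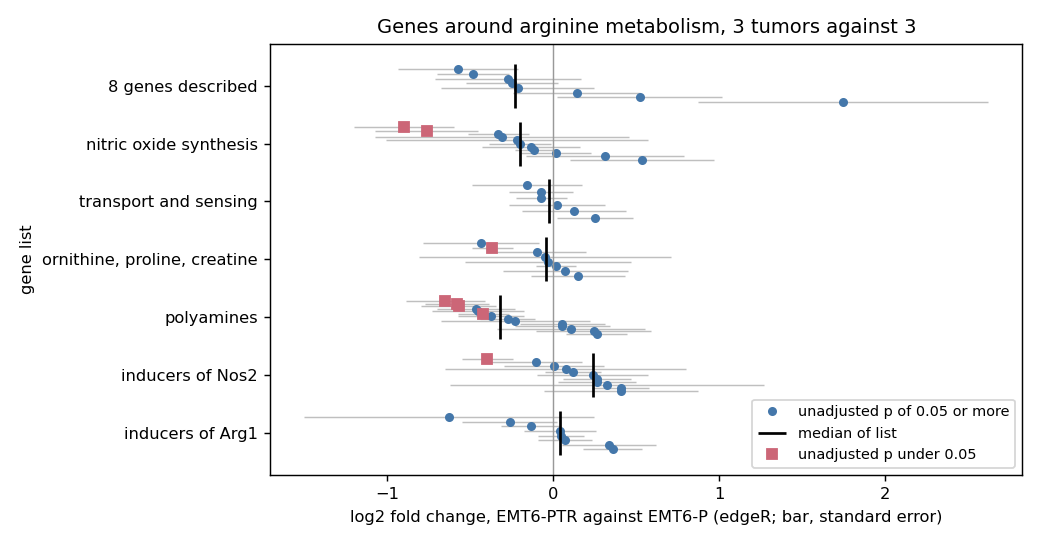
Log2 fold change of EMT6-PTR against EMT6-P (x axis) of each tested gene with its SE, by list (y axis); squares mark an unadjusted p under 0.05 and black bars the median of a list. Nos2, at 1.75, lies farthest to the right, and 4 of the 7 squares of the wider list are polyamine genes.

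Known inducers and macrophage state genes were set beside Nos2 and Arg1. Of 37 such genes 30 were tested, 0 had an adjusted p under 0.05, and 2 were lower and 0 higher at an unadjusted p under 0.05 in edgeR's test, against 5.57% and 5.84% of all genes, with a median log2 fold change of 0.06. The 2 lower genes became 0 without any 1 of the EMT6-P tumors or without EMT6-PTR replicate 2. Over all genes, 1.89% to 3.77% were lower in these fits. Without EMT6-PTR replicate 3, 5 genes were higher, where 8.8% of all genes were. The 2 were Rela, a subunit of NF-kB, at 90.5, 86.9 and 83.7 CPM in EMT6-P and 77.5, 65.3 and 55.5 CPM in EMT6-PTR (log2 fold change -0.40, adjusted p = 0.433 in edgeR's test), and Mgl2, a lectin of alternatively activated macrophages, at 5.12, 6.49 and 4.95 CPM in EMT6-P and 2.53, 2.62 and 0.391 CPM in EMT6-PTR (log2 fold change -1.59, adjusted p = 0.437 in edgeR's test). Tlr4, the receptor for bacterial lipopolysaccharide, was at 23.8, 19.1 and 17.2 CPM in EMT6-P and 27.8, 27.5 and 24.2 CPM in EMT6-PTR, with no overlap and an adjusted p of 0.438 in edgeR's test.

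Classical activation genes followed the tumor more than the group. Of the 5 tested, 5 were above all EMT6-P tumors in EMT6-PTR replicate 2, the tumor with high Nos2, against 33.8% of all genes, and 5 were below them in replicate 3, against 42.7%. Cxcl9, a chemokine that interferon gamma induces, measured 28.0, 17.5 and 28.4 CPM in EMT6-P and 19.3, 58.5 and 4.92 CPM in EMT6-PTR. Cd80, a costimulatory ligand, measured 13.1, 9.30 and 10.5 CPM in EMT6-P and 9.95, 20.7 and 6.80 CPM in EMT6-PTR. Both were highest in replicate 2 and lowest in replicate 3 of EMT6-PTR. Of the 6 tested genes of alternative activation, 3 were above all EMT6-P tumors in EMT6-PTR replicate 3 and 1, Mgl2, was below them, against 39.8% and 42.7% of all genes. Cd163, a scavenger receptor in this list, measured 2.31, 2.95 and 19.97 CPM in EMT6-PTR against 4.29, 1.96 and 2.50 CPM in EMT6-P, so that replicate 3 was its highest tumor. Ifng, a cytokine that induces Nos2, was too low to be tested.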

How the data were processed

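RNA was extracted from tumor tissue and made into polyadenylated, strand-keeping libraries. According to the submitters' processing notes and the methods, the authors checked reads with FastQC 0.11.5, aligned them with STAR 2.6.0a to GRCm38 with the GENCODE M16 annotation, and estimated counts per gene with RSEM 1.3.1. The deposited values are these estimated counts, not normalized, in 1 column per library. Between 13.5% and 15.6% of the values of a library are fractional, since RSEM divides reads shared by similar genes, and counts were rounded here. Identifiers were matched to GENCODE M21, where 53274 of 53465 had a symbol.

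Genes passing filterByExpr were scaled by upper quartile and tested with edgeR 4.0.16 (glmQLFit, glmQLFTest) in R 4.3.3 over 3 EMT6-PTR and 3 EMT6-P tumors, with Benjamini-Hochberg adjustment over all 15645 genes and a threshold of 0.05. The SE of a log2 fold change is its size over the square root of F. CPM is on the upper-quartile scale of all 7 libraries, and a prior count of 2 was used for log2 ratios and profiles. Limits for 0 counts cover counting error only. The alternatives were TMM scaling, DESeq2 1.42.0, limma-voom (limma 3.58.1), other filters, the metastasis as an additional group, a block for the replicate number, and omission of each tumor. The fits were also run on simulated data with the same dispersion in both groups. Those simulations do not cover the unequal dispersions of EMT6-P and EMT6-PTR that are given below.

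The named genes are the 8, up to 4 genes of each other list with the smallest p, Nos1, Nos3 and Gch1, and the 5 and 3 genes nearest to Nos2 and Arg1 in profile. Il1b, Ifng, Gatm, Cps1 and CT010467.1 fall outside this rule and were picked after their values were seen. A gene that this rule names is not reported here. The genes and lists were chosen with earlier results of these data known. Promoter windows came from RefSeq (GRCm38.p6). Tables and plots were made with Python 3.11.15, pandas 2.3.3 and matplotlib 3.10.9.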

Additional observations from a re-analysis of the deposited data

How the results depend on the processing

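No alternative gave any of the 8 genes an adjusted p under 0.05; over all 13 alternatives the lowest was 0.125, for Odc1 without EMT6-PTR replicate 3. Over the fits that omit 1 tumor, the log2 fold change ranged for Nos2 from 0.16 to 2.18, Arg1 from -0.88 to -0.22, Arg2 from -0.43 to -0.02, Asl from -0.74 to -0.37 and Slc7a2 from 0.13 to 0.88. Ass1 ranged from -0.70 to 0.10 and Slc7a1 from -0.59 to 0.18, each above 0 only without EMT6-PTR replicate 3, and Odc1 from -0.079 to 0.49, the lowest being without EMT6-PTR replicate 1 and the next, -0.064, without replicate 2 of that group. Over all genes, edgeR called 0 and DESeq2 called 281 (138 higher), none of them among the 8, and the cause was not tested. At an unadjusted p under 0.05 edgeR had 1786 genes. DESeq2 gave Nos2 an unadjusted p of 0.0232 and an adjusted p of 0.231, against 0.203 to 0.887 over its alternatives.

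The replicate numbers are not stated to pair tumors. Deviations from the group means correlated at 0.259, 0.253 and 0.038 for numbers 1 to 3. Between unlike numbers the correlations ran from -0.286 to 0.098, so numbers 1 and 2 gave the highest values. For number 3, EMT6-P correlated more with EMT6-PTR replicate 1 (0.098) than with its own number. As pairs are not stated, the tumors were not taken as pairs in the main fit. The fit with the replicate number as a block called 0 genes, with 1268 at an unadjusted p under 0.05, and gave Nos2 a log2 fold change of 1.20. The median log2 fold change of all genes lay between -0.019 and 0.095 in every fit. The common dispersion was 0.245 among the 3 EMT6-PTR tumors and 0.0266 among the 3 EMT6-P tumors, and the 8 genes had at least 113 estimated counts in each library. Promoters of Nos2, Arg1, Arg2, Asl and Slc7a2 were not analysed here.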
